A study of Homo sapiens with 3 samples.

Results

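Pseudogene transcripts were examined in an RNA immunoprecipitation of MEX3A from ACHN cells, an established human renal cell carcinoma line. The members are the rows with the gene type pseudogene that held at least 20 expected counts summed over the Flag and IgG libraries. They number 205 of 13931 such rows, or 1.47%, in tables of 57820 genes. Both libraries came from ACHN cells that overexpressed MEX3A with a Flag tag, and they differed in the labelled antibody, anti-Flag or IgG. The protocol text, identical for both, names only the anti-Flag antibody, so the IgG group rests on the antibody label. Each group is 1 library, so no difference below has a replicate check and no p-value was computed. The input sample of the series was not analysed here, and RNA levels in the cells were therefore not used.

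Pseudogenes are copies of genes that have lost the original coding function. Processed pseudogenes arise when an mRNA is reverse transcribed and inserted into the genome, so they lack introns, while duplicated pseudogenes arise with a copied stretch of DNA and often keep introns and flanking sequence. Many are transcribed, and their near identity to the parent gene makes short reads hard to assign. MEX3A is an RNA-binding protein with KH domains and a RING finger, and RNA immunoprecipitation recovers RNAs held in its complexes together with RNA that binds to the beads or antibody without it.

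The Flag library held 5498153 rounded counts and the IgG library 3412890. MEX3A itself had 103 Flag and 5 IgG counts, a ratio of 12.8 (95% interval 5.31 to 40.2). All 9 renal epithelial markers were detected with Flag and 8 of them with IgG. The 4 leukocyte, 2 erythroid and 1 hepatocyte markers were at 0 in both libraries, and 1 of 3 endothelial markers was detected, with 9 Flag counts.

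Throughout, a ratio is Flag CPM over IgG CPM, where CPM are counts scaled to a common library size, with an exact 95% Clopper-Pearson interval for counting error. A row was called enriched in the Flag library where the interval lay wholly above 2 and depleted where it lay wholly below 0.5. A row at 0 in the IgG library was set against a floor of 3 counts, 0.879 CPM, and its ratio is given as at least that size with the lower bound of its interval. These bounds cover counting error alone. Reads that are copies of 1 molecule, the division of reads between rows and variation between libraries lie outside them.

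Few pseudogenes were detected, and a handful of rows held much of their signal. Of the 13931 pseudogene rows, 975 had a Flag count and 731 an IgG count. Together they held 18446 Flag counts, 0.335% of the library, and 6674 IgG counts, 0.196%. The members held 83.4% of the Flag counts of all pseudogenes and 76.4% of the IgG counts. MTATP6P1, AC093734.1, RP11-673C5.1 and AL139819.1, the 4 most abundant members, held 31.2% of the members' Flag counts but 11.1% of their IgG counts.

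Of the 205 members, 52 were enriched, or 25.4%, against 28.7% of the 10796 genes with the same minimum of counts. Depletion was called for 7 members, or 3.41%, against 1.32% of those genes. The other 146 members were not called. The enriched share was thus near the background when depth was not matched. The median log2 ratio was 0.83 over the members, with quartiles of −0.35 and 2.05, and 0.95 over all genes, with quartiles of 0.10 and 1.88. Ratios below 1 were held by 67 members, or 32.7%, and by 21.9% of all genes. Enriched rows made up 88.1% of the calls under scaling by library totals, 50% under trimmed-mean (TMM) and under median-of-ratios scaling, and 79.6% when totals left out mitochondrial and the 10 most abundant genes. The same shares over all genes were 95.6%, 66.1%, 65.3% and 91.4%. TMM lowered every log2 ratio by 0.78, so a position relative to all genes does not depend on it.

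**Figure D1:**
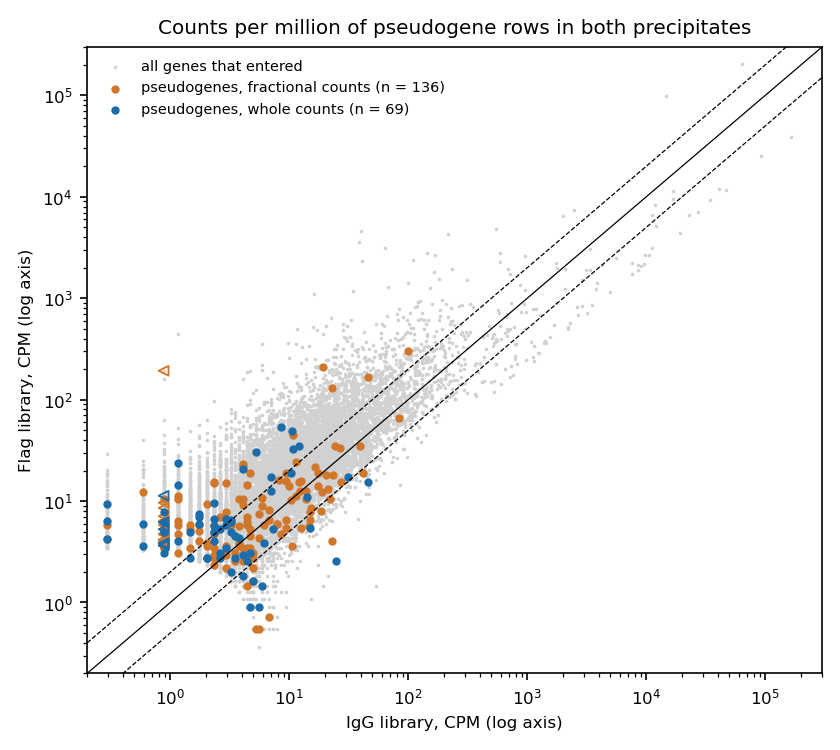
CPM of each row in the IgG library (horizontal, log axis) and the Flag library (vertical, log axis), with all 10796 genes in grey, the 69 pseudogenes with whole counts in blue and the 136 with fractional counts in orange. The solid line marks a ratio of 1, dashed lines ratios of 2 and 0.5, and open triangles the 18 pseudogenes at 0 in the IgG library, drawn at the floor of 0.879 CPM. Pseudogenes spread to both sides of the solid line, and AL139819.1 lies furthest to the upper left among the pseudogenes. The largest ratio over all genes, 382, was higher than its ratio.

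The members were selected on their counts summed over both libraries, which bounded the ratios they could have. All 18 members at 0 in the IgG library entered on Flag counts alone, and a row with 20 Flag and 0 IgG counts already stands at a ratio of at least 4.14. No member was at 0 in the Flag library, but a row with few Flag counts could enter only through its IgG counts and so had to be low. Members were also thinner than genes of other types, with a median of 43 counts over both libraries against 121. Within bands of equal depth, 24 of 116 members with 20 to 49 counts were enriched, or 20.7%, against 382 of 2540 genes there. Rows at 0 in the IgG library made up 15 of these 116 members and 145 of these 2540 genes. Each such row had to be enriched, since 20 Flag and 0 IgG counts already give a lower bound of 3.065. The calls in this band are thus in part built in, and it cannot decide whether members exceeded all genes. Between 50 and 199 counts 18 of 72 members were enriched, against 24.4% of all genes, and from 200 counts the shares were 58.8% of 17 members and 43.3% of all genes. Just inside the minimum lay FER1L4 with 17 Flag and 3 IgG counts, DUSP8P5 with 15 and 5, and 1 locus named by its clone with 20 and 0, which was enriched. Just outside it were RP9P with 19.84 expected counts in all, 1 clone-named locus with 19.41, all of them in the Flag library, and IMPDH1P10 with 19.22.

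Counts were split into whole and fractional, since a fractional expected count marks reads that the counting divided among similar sequences, while a whole count, 0 included, does not show that no read was shared. Both expected counts lay within 0.01 of a whole number for 69 members, or 33.7%, against 84.5% of all genes. Among these, 20 were enriched, or 29.0%, and 3 depleted, against 29.2% and 1.17% of all genes with whole counts. Among the 136 fractional members, 32 were enriched, or 23.5%, and 4 depleted, or 2.94%, against 25.8% and 2.16% of all fractional genes. The median log2 ratio was 1.07 over whole and 0.46 over fractional members, beside 0.97 and 0.78 over all genes of each kind. The difference of −0.61 between the members' medians had an interval of −1.55 to 0.13, which holds 0. With whole defined as within 0.1, the difference was −0.94 (−1.99 to −0.29) (81 whole members). With 1 whole library sufficing it was −1.42, but a count of 0 is whole, so that setting moved all 12 fractional members at 0 in the IgG library, each of them enriched, into the whole group, and the difference is in part built in. These intervals combine the order-statistic bounds of both medians over rows, which are not replicates of a condition.

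**Figure D2:**
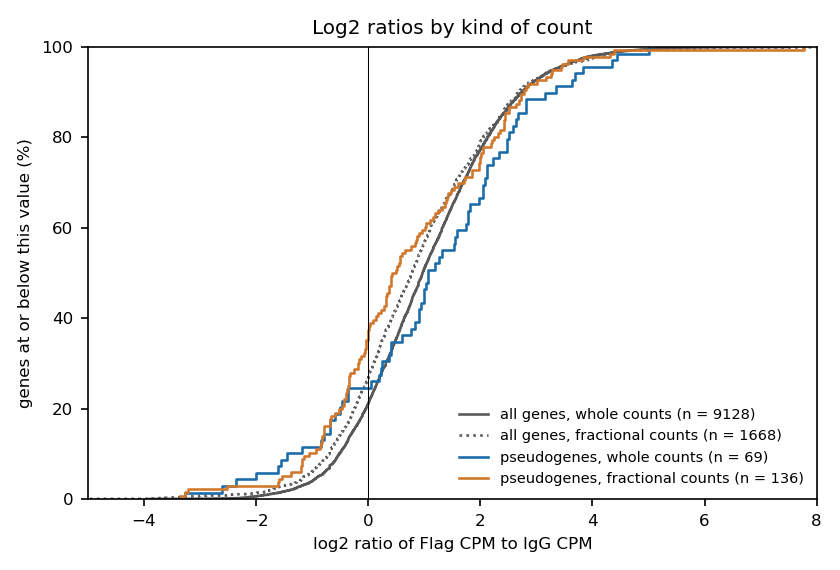
Share of genes (vertical, percent) at or below each log2 ratio of Flag CPM to IgG CPM (horizontal) for pseudogenes with whole counts (blue), pseudogenes with fractional counts (orange) and all genes of both kinds (grey, solid for whole and dotted for fractional). The orange curve crosses 50% at 0.46, left of the other three, and the blue curve at 1.07.

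Some rows typed as pseudogenes lie close in sequence to a gene. SRGAP2, which encodes a protein of migrating neurons, has the partial copies SRGAP2B and SRGAP2C, which the deposited tables type as pseudogenes and RefSeq lists as protein-coding. Their promoters are shown because the reference used here holds sequences for the gene and both copies, and they show how close these stretches of DNA are, not how close the transcripts are. Each line is 200 bases on the strand of the gene, aligned at the same base and lying upstream of the RefSeq start, with capitals where a base differs from SRGAP2.
SRGAP2: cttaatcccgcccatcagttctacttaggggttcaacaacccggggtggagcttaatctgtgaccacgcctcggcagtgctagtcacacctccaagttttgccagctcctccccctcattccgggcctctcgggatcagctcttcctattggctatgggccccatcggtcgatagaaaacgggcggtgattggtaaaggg
SRGAP2B: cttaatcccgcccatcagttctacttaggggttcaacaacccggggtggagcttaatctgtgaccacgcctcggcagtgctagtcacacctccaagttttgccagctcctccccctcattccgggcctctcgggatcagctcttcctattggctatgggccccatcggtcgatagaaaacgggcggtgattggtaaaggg
SRGAP2C: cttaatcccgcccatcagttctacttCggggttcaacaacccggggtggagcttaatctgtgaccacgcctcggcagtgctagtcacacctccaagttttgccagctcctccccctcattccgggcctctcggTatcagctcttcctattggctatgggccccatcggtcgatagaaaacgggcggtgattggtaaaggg
In build GRCh38.p14 of RefSeq these are chr1:206203291-206203490 on the plus strand for SRGAP2, chr1:145095383-145095582 on the minus strand for SRGAP2B and chr1:121184756-121184955 on the plus strand for SRGAP2C. SRGAP2B has 0 and SRGAP2C 2 differing bases in this window. Over the longer alignment of 269 columns SRGAP2C has 2 substitutions and 9 inserted bases, and 95.9% of the columns match. All 3 rows had fractional counts. SRGAP2 had 378 Flag and 131 IgG counts, a ratio of 1.79 (1.47 to 2.20). SRGAP2B had 28 and 6, a ratio of 2.90 (1.18 to 8.56), and SRGAP2C had 41 and 19, a ratio of 1.34 (0.760 to 2.44). Neither copy stood apart from SRGAP2, since the odds ratio of its Flag and IgG counts to those of SRGAP2 was 1.62 (0.638 to 4.88) for SRGAP2B and 0.748 (0.407 to 1.42) for SRGAP2C.

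The most abundant member was MTATP6P1, a nuclear copy of the mitochondrial gene for a subunit of ATP synthase. It had 1664 Flag and 341 IgG counts, a ratio of 3.03 (2.69 to 3.41). RP11-673C5.1, a locus named by its clone, had 924 and 158, a ratio of 3.63 (3.06 to 4.32). AC093734.1, also named by clone, had 1148 and 66, a ratio of 10.8 (8.42 to 14.1). All 3 were high in the Flag library and all had fractional counts. STAG3L3, one of several partial copies of the meiotic cohesin gene STAG3, had 715 Flag and 78 IgG counts, a ratio of 5.69 (4.50 to 7.28). STAG3 itself had few counts, 17 and 2. The 6 rows of the STAG3 family summed to 1060 and 159, a ratio of 4.14 (3.50 to 4.92), so the family was higher in the Flag library however its reads were divided among these rows. Among the 10 most abundant members only RPL41P1 and HERC2P2 were not called, at ratios of 0.789 (0.674 to 0.924) and 0.896 (0.715 to 1.13).

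Of all members, AL139819.1 had the widest gap between the libraries, 1059 Flag counts and 0 IgG counts. Its ratio was at least 219, with a lower bound of 178, while the largest over all genes was 382. Its Flag count was fractional, so its reads were shared with other rows. Among fractional rows at 0 in the Flag library, the largest IgG count was 27, at the protein-coding row LY75-CD302, so no row with 0 Flag counts held a comparable IgG count. The part of read assignment in the counts of AL139819.1 was not tested.

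Several enriched members had whole counts in both libraries. AC093724.2 had 62 Flag and 0 IgG counts, a ratio of at least 12.8 (lower bound 10.1). SCAND2P, a relic of a SCAN-domain gene, had 131 and 4, a ratio of 20.3 (7.75 to 75.7). BASP1P1, a copy of the gene for a membrane-attached signalling protein of growing neurons, had 52 and 1, a ratio of 32.3 (5.54 to 1299). The upper bound of BASP1P1 is loose because it rests on 1 IgG count. AC009237.8 had 80 and 4, a ratio of 12.4 (4.66 to 46.7). LINC00888, which RefSeq lists as a long noncoding RNA under the symbol SNHG33, had 34 and 0, at least 7.03-fold higher (lower bound 5.42). SLC9A7P1, a copy of a Golgi sodium-proton exchanger gene, had 29 and 0, at least 6-fold higher (lower bound 4.58). At higher counts, ZNF37BP, a copy of a KRAB zinc finger gene, had 296 and 29, a ratio of 6.34 (4.32 to 9.63). AC141586.5 had 272 and 36, a ratio of 4.69 (3.31 to 6.84). In all 8 the Flag library was the higher.

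The remaining members with the highest lower bounds had fractional counts. RP11-396K3.1 had 53 Flag and 0 IgG counts, RP11-641D5.1 had 47 and 0, LRRC37A17P had 39 and 0, AC034102.1 had 35 and 0 and RP11-561C5.4 had 32 and 0. Their ratios were at least 11.0, 9.73, 8.07, 7.24 and 6.62, with lower bounds of 8.61, 7.60, 6.26, 5.58 and 5.08. RP11-632K20.7 had 67 and 2, a ratio of 20.8 (5.54 to 175). LRRC37A17P, from a family of leucine-rich repeat genes duplicated in primates, overlaps the span of LRRC37A2 in RefSeq. LRRC37A2 had 23 and 11 counts, a ratio of 1.30 (0.608 to 2.95).

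Depletion from the Flag library was called for 7 members. MYH16, the masticatory myosin gene inactivated in humans, had 14 Flag and 84 IgG counts, a ratio of 0.103 (0.0542 to 0.183). Typed as a pseudogene in the deposited tables, it is not one in RefSeq, which lists it as protein-coding. RALGAPA1P, a copy of a gene for a Ral GTPase-activating protein subunit, had 22 and 78, a ratio of 0.175 (0.104 to 0.284). HMGB1P3, a copy of the chromatin protein gene HMGB1, had 4 and 23, a ratio of 0.108 (0.0271 to 0.316). GTF2IP1, a copy of the transcription factor gene GTF2I, had 3 and 19, a ratio of 0.0980 (0.0186 to 0.333). All 4 were higher in the IgG library. The clone-named loci AC125232.1, CTC-484P3.1 and RP11-512M8.3 had 3 and 18, 5 and 19, and 85 and 156 counts, with ratios of 0.103 (0.0195 to 0.354), 0.163 (0.0477 to 0.452) and 0.338 (0.257 to 0.443). MYH16, CTC-484P3.1 and RP11-512M8.3 had whole counts. HMGB1P3, GTF2IP1, AC125232.1 and CTC-484P3.1, with 3 to 5 Flag counts, could reach the minimum only mostly through IgG counts and so had to be low.

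**Figure D3:**
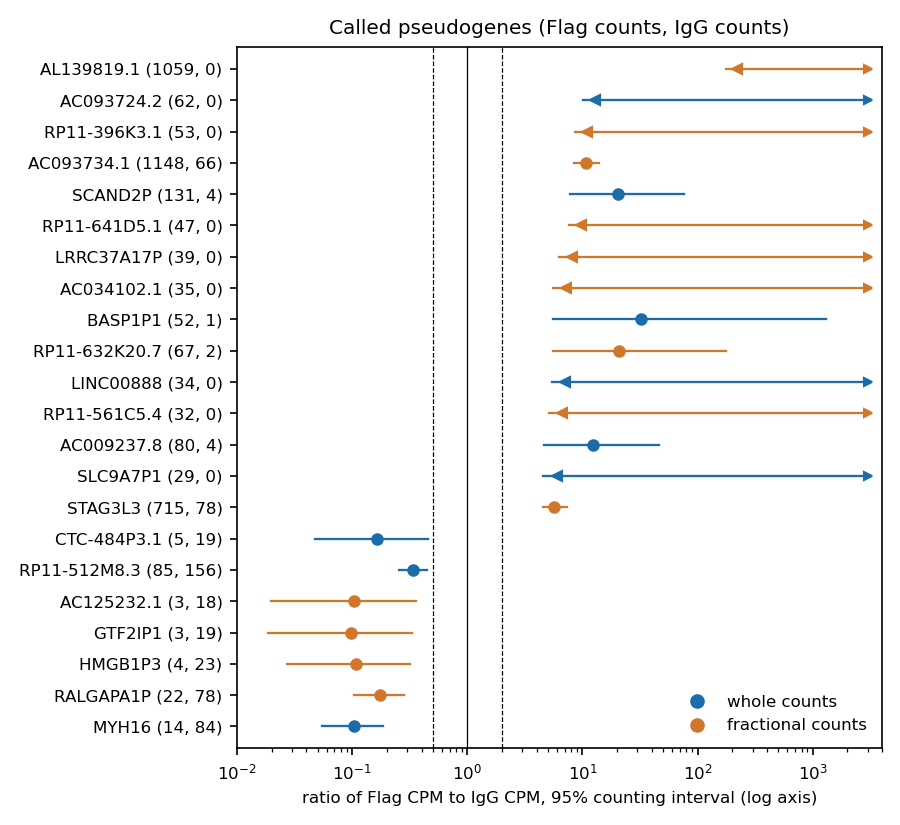
Ratio of Flag CPM to IgG CPM (horizontal, log axis) with its 95% counting interval for the 15 enriched pseudogenes with the highest lower bounds and the 7 depleted ones, whole counts in blue and fractional counts in orange, with Flag and IgG counts after each name. Left-pointing triangles are ratios against the floor of 3 counts, whose intervals have no upper end, and dashed lines mark 0.5 and 2. AL139819.1 lies furthest right, with a lower bound of 178.

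Copies of genes for the cytosolic ribosomal proteins, a source of many processed pseudogenes, gave 7 members, of which 2 were enriched, or 28.6%, against 28.7% of all genes, and none depleted. Both calls were lost under TMM and under median-of-ratios scaling. Their median log2 ratio was −0.34, against 0.95 over all genes. RPL23AP79 had 178 Flag and 37 IgG counts, a ratio of 2.99 (2.09 to 4.38), with whole counts. RPL13P5 had 85 and 8, a ratio of 6.59 (3.20 to 15.8). RPL41P1, the deepest of them, had 366 and 288 counts, and RPS2P5 had 58 and 47, a ratio of 0.766 (0.512 to 1.15). RPL9P8 and RPL9P9 held the same values, 33 and 27, and neither was called. These values stand 2 times in the list, and why they are equal was not tested. The list thus held 2 rows above a ratio of 2 on the whole interval, 1 row, RPL32P3, at 2.40 (1.08 to 6.06), and 4 below 1.

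Other lists by family were small. Nuclear protein copies gave 3 members, none enriched and 1 depleted, HMGB1P3. H3F3AP4, a copy of a histone H3.3 gene, had 86 and 43 counts, a ratio of 1.24 (0.851 to 1.83), and HMGN2P5, a copy of a nucleosome-binding protein gene, had 27 and 8, a ratio of 2.10 (0.926 to 5.34). KRT8P39, a keratin copy, was the 1 member of the cytoskeleton and metabolism list, with 15 and 7, a ratio of 1.33 (0.510 to 3.86). The list of translation factor and chaperone copies, drawn by the symbol stems EEF, EIF, HSP and CCT, had no member.

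Families spread by segmental duplication gave 23 members with 2 enriched, or 8.70%, against 28.7% of all genes, none depleted and a median log2 ratio of 0.14. Both calls were lost under TMM and under median-of-ratios scaling. PMS2CL, a partial copy of the mismatch repair gene PMS2, had 103 Flag and 16 IgG counts, a ratio of 4.00 (2.35 to 7.25). ABCC6P1, a copy of a transporter gene, had 20 and 0, at least 4.14-fold higher (lower bound 3.06). At the low end HERC2P9 had 43 and 51, a ratio of 0.523 (0.340 to 0.801), and PKD1P5 had 26 and 29, a ratio of 0.557 (0.315 to 0.979). Of these 23 rows, 20 had fractional counts. WASH6P was listed under 2 identifiers with the same 15 and 16 counts and stands 2 times among the members.

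Loci known by a clone name gave 73 members, 23 enriched, or 31.5%, and 3 depleted, with a median log2 ratio of 0.83. Other symbols with a final P and number gave 51 members, 11 enriched, or 21.6%, and 1 depleted, with a median of 1.02. Remaining symbols gave 46, 13 enriched, or 28.3%, and 2 depleted, with a median of 0.99. The shares over all genes were 28.7% enriched and 1.32% depleted, with a median of 0.95. No list by family is called particular from these counts.

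The current RefSeq annotation gave a status for 127 members, 106 by symbol and 21 by synonym. It lists 79 as transcribed pseudogenes, of which 19 were enriched, or 24.1%, and 2 depleted, with a median log2 ratio of 0.96. It lists 37 as pseudogenes without that mark, of which 6 were enriched, or 16.2%, and 1 depleted, with a median of −0.04. Over all genes 28.7% were enriched, 1.32% depleted and the median was 0.95. It lists 8 as protein-coding and 3 as long noncoding RNA, and 78 were not matched, with a median of 0.69 and 25 enriched. Among the protein-coding 8, SPDYE8P was enriched and MYH16 depleted. Without these 11 rows, 50 members were enriched and 6 depleted.

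Among 30 symbols of pseudogenes listed from the literature as expressed, 3 were members. STAG3L4 had 34 Flag and 3 IgG counts, a ratio of 7.03 (2.21 to 35.8), with whole counts. PDIA3P, a copy of a gene for a disulfide isomerase of the endoplasmic reticulum, had 33 and 3, a ratio of 6.83 (2.14 to 34.8). GBAP1 had 58 and 14, a ratio of 2.57 (1.42 to 4.99), which was not called. Its deposited TPM run the other way, 6.81 with Flag and 9.05 with IgG, and its deposited gene length differs between the libraries, 1725 and 652.6 bases. The calls of STAG3L4 and PDIA3P were lost under each of the other scalings.

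Each pseudogene was next set beside the gene that its symbol names. Of 73 members with a final P and number, 72 had a stem that matched another gene, and for 65 that parent, 1 of 52 protein-coding genes, held enough counts. The odds ratio of Flag to IgG counts of pseudogene over parent does not depend on library scaling. Its exact conditional 95% interval lay above 1 for 21 pairs, called higher, below 1 for 17, called lower, and held 1 for 27. Of the 21, 5 pseudogenes were at 0 in the IgG library (ABCC6P1, BMS1P4, NUS1P1, SLC9A7P1 and WHAMMP2), entered on Flag counts alone and so had to be high. The median log2 difference, pseudogene minus parent, was 0.10. Across the 65 pairs the rank correlation of both log2 ratios was −0.03. It is given as a description, since parents recur and fractional rows can share reads with the parent or with other rows.

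The calls of pseudogenes and parents, under scaling by library totals, were then set side by side. The pseudogene was enriched in 14 of the 65 pairs and the parent in 16, with both enriched in 3, the pseudogene alone in 11 and the parent alone in 13. Over all genes 28.7% were enriched. Whether the overlap differs from that of unrelated rows was not tested. Pseudogenes with whole counts gave 22 pairs, of which 5 were higher, 7 lower and 10 not apart. Fractional pseudogenes gave 43 pairs, of which 16 were higher, 10 lower and 17 not apart. The interval of an odds ratio does not cover error in dividing reads, which would move counts between rows of similar sequence. The other row need not be the parent, since some parents of fractional pseudogenes, among them BMS1, RPL13 and WHAMM, had whole counts. The pseudogene held a median of 14.4% of the counts of its pair.

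**Figure D4:**
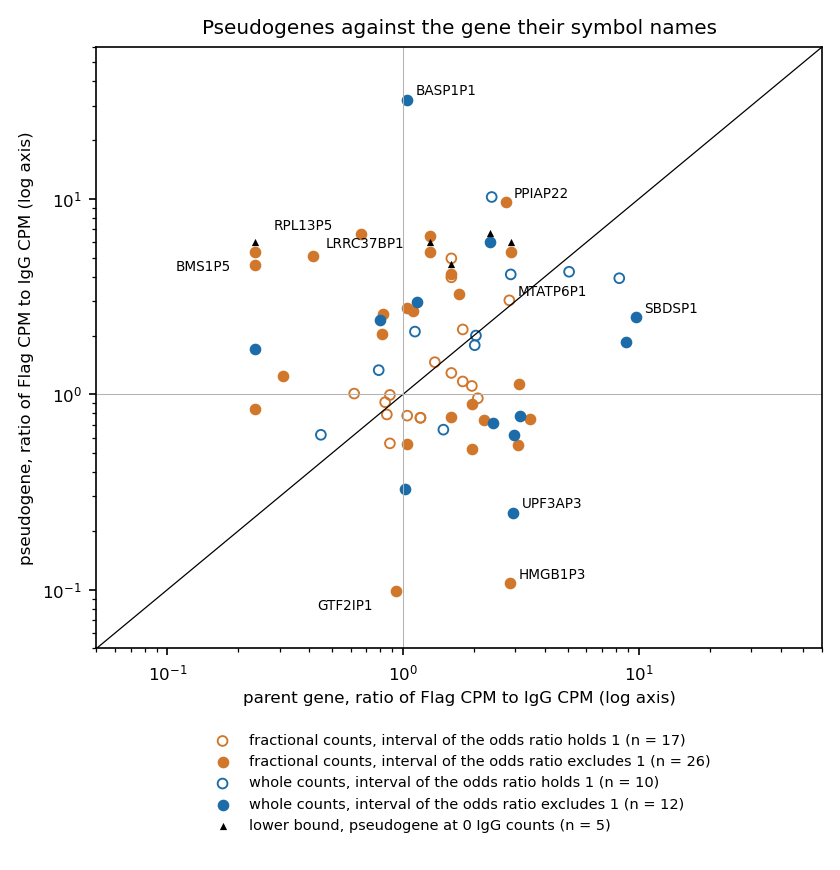
Ratio of Flag CPM to IgG CPM of the pseudogene (vertical, log axis) and of its parent gene (horizontal, log axis) for 65 pairs, blue for pseudogenes with whole counts and orange for fractional ones, filled where the interval of the odds ratio excludes 1. Small black triangles mark 5 pseudogenes at 0 IgG counts, drawn at the floor, and the diagonal marks equal ratios. The pairs lie on both sides of the diagonal, and BASP1P1 and HMGB1P3 lie far from it.

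Among pairs with the pseudogene higher, BASP1P1 stood furthest above its parent with whole counts in both rows. BASP1 had 244 Flag and 145 IgG counts, a ratio of 1.05, and the odds ratio was 30.8 (5.17 to 1252). RPL13P5 stood above RPL13, which had 405 and 380 counts and a ratio of 0.662, at an odds ratio of 9.95 (4.74 to 24.1). RPL23AP79 stood above RPL23A, with 424 and 229 counts and a ratio of 1.15, at 2.60 (1.74 to 3.94). RPL32P3 stood above RPL32, with 132 and 103 counts and a ratio of 0.796, at 3.01 (1.29 to 7.92). RPL41P1 was not apart from RPL41, at 0.924 (0.708 to 1.20), nor RPL9P8 and RPL9P9, with their shared values, from RPL9, at 0.641 (0.346 to 1.19), and RPS2P5 was lower than RPS2, at 0.480 (0.318 to 0.726). The 7 ribosomal protein pairs thus held 3 higher, 3 not apart and 1 lower. LRRC37BP1, with 82 and 10 counts, stood above LRRC37B, with 8 and 12, at 11.9 (3.54 to 43.2). H3F3AP4 stood above H3F3A, with 13 and 26 counts, at 3.96 (1.76 to 9.30).

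BMS1, which encodes a GTPase of ribosome assembly, was depleted, and none of its 4 copies that reached the minimum was. BMS1 had 780 Flag and 2054 IgG counts, a ratio of 0.236, with whole counts. BMS1P5 had 52 and 7, an odds ratio to BMS1 of 19.5 (8.79 to 51.2). BMS1P4 had 26 and 0, which gives a lower bound of 17.2 and no upper one. BMS1P10, with whole counts of 22 and 8, stood at 7.24 (3.09 to 18.9), and BMS1P2, with 19 and 14, at 3.57 (1.69 to 7.74). These 4 lay above the parent, and BMS1P4 and BMS1P5 were themselves enriched, though the call of BMS1P5 was lost under each of the other scalings. BMS1 holds most of the family's counts, so the family sum of 914 and 2091 gave a ratio of 0.271 (0.251 to 0.293).

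Among pairs with the pseudogene lower, HMGB1P3 stood furthest below. HMGB1 had 1242 Flag and 271 IgG counts, a ratio of 2.85, and the odds ratio was 0.0381 (0.00949 to 0.113). UPF3AP3, a copy of a gene of nonsense-mediated decay, had 8 and 20 counts, and UPF3A had 180 and 38, an odds ratio of 0.0857 (0.0303 to 0.221) with whole counts in both rows. GTF2IP1 stood at 0.105 (0.0198 to 0.361) against GTF2I, with 494 and 328 counts. HMGB1P3, UPF3AP3 and GTF2IP1 had few Flag counts, could reach the minimum only mostly through IgG counts and so had to be low. SBDSP1, a close copy of the ribosome maturation gene SBDS, had 96 and 24 counts, while SBDS had 235 and 15, an odds ratio of 0.256 (0.119 to 0.534) with whole counts in both. SBDSP1 therefore had a ratio above 2, at 2.48 (1.57 to 4.06), yet lay below a parent at 9.73. DNM1P47, with 60 and 48 counts, stood at 0.248 (0.157 to 0.392) against the dynamin gene DNM1. ITGB1P1, with 15 and 17, stood at 0.178 (0.0824 to 0.383) against the integrin gene ITGB1, and CROCCP3, with 21 and 21, at 0.211 (0.105 to 0.422) against the rootletin gene CROCC. AK4P1, with 12 and 10, stood at 0.216 (0.0812 to 0.586) against the adenylate kinase gene AK4. The parents DNM1, ITGB1, CROCC and AK4 were all enriched under scaling by library totals, at ratios between 2.95 and 3.47. Their lower bounds, from 2.39 for CROCC to 2.79 for ITGB1, fall below 2 under TMM and median-of-ratios scaling, which removes these calls.

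The pairs not apart included deep and thin ones. MTATP6P1 and MT-ATP6, which had 10685 and 2346 counts and a ratio of 2.83, gave an odds ratio of 1.07 (0.945 to 1.22). TPM3P9, with whole counts of 29 and 9, and the tropomyosin gene TPM3, with 3036 and 924, gave 0.981 (0.450 to 2.36). RNF216P1 and the ubiquitin ligase gene RNF216, also whole, gave 0.885 (0.527 to 1.53). The intervals of TPM3P9 and RNF216P1 are wide, and MTATP6P1 and MT-ATP6 both had fractional counts. None of these values shows that a pseudogene and its parent act alike.

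Members outside the symbol rule were set beside a relative in the same way. ZNF37BP lay below ZNF37A, which had 156 Flag and 4 IgG counts, at an odds ratio of 0.262 (0.0658 to 0.766) with whole counts in both, although each was enriched. PDPK2, with 245 and 37 counts and a ratio of 4.11 (2.90 to 5.98), was not apart from PDPK1, the kinase gene upstream of AKT, at 1.57 (0.929 to 2.66). ANKRD36B, with 77 and 60, stood above ANKRD36, with 121 and 194, at 2.05 (1.34 to 3.16). Where only a final P ends the symbol, RALGAPA1P lay below RALGAPA1, at 0.284 (0.147 to 0.536), and SUZ12P below the Polycomb gene SUZ12, at 0.275 (0.115 to 0.648), while NUDT16P, PDIA3P and PLEKHM1P were not apart from their parents.

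Families with several copies varied within themselves. HERC2, a ubiquitin ligase gene, had 1001 Flag and 317 IgG counts, a ratio of 1.96, and HERC2P2 and HERC2P9 lay below it, at odds ratios of 0.457 (0.352 to 0.595) and 0.267 (0.170 to 0.418), while HERC2P3 was not apart. For PKD1, the polycystin-1 gene, with a ratio of 1.04, PKD1P6 lay above at 2.65 (1.39 to 5.44), PKD1P5 below at 0.535 (0.292 to 0.976) and PKD1P1 was not apart. Summed, the PKD1 family had a ratio of 0.999 (0.861 to 1.16). WHAMMP3, with 83 and 8 counts, and WHAMMP2, with 26 and 0, both lay above WHAMM, a gene for an activator of actin assembly, at 4.92 (2.13 to 12.8) and with a lower bound of 2.93. The WHAMM family summed to 199 and 51 counts, a ratio of 2.42 (1.77 to 3.36). NUS1P1 lay above NUS1, a gene of dolichol synthesis, with a lower bound of 1.37, but with 26 and 0 counts it entered on Flag counts alone, and NUS1P2 was not apart from it. Copies of PI4KA, a lipid kinase gene, and of NSUN5, an RNA methyltransferase gene, were not apart from their parents.

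**Figure D5:**
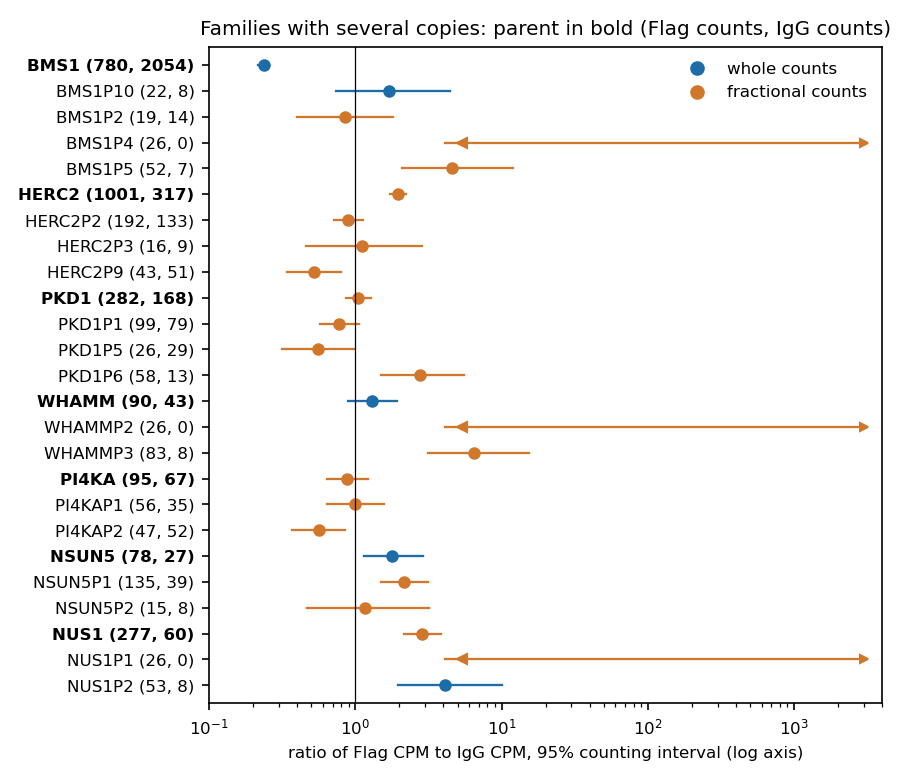
Ratio of Flag CPM to IgG CPM (horizontal, log axis) with its 95% counting interval for 7 parent genes, in bold, and their pseudogenes, whole counts in blue and fractional counts in orange, with Flag and IgG counts after each name. Left-pointing triangles are ratios against the floor of 3 counts, whose intervals have no upper end. BMS1 lies at 0.236 with the 4 copies that reached the minimum to its right, while the 3 plotted copies of HERC2 lie to the left of HERC2 at 1.96.

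A pseudogene that lies inside another gene can take up reads of that gene. The RefSeq table, which is of another build, was used here only for which genes overlap. The 78 members not matched to it, among them AL139819.1 and AC093734.1, were not checked. Of the 127 matched members, 61 overlap another gene of the deposited data and 25 lie inside one. For 13 of these the surrounding gene was protein-coding and held enough counts. The pseudogene was not apart from it in 6, lower in 6 and higher in 1. MORF4L1P1, with 79 Flag and 15 IgG counts, was not apart from its surrounding gene RAB3GAP2, at an odds ratio of 1.07 (0.548 to 2.20), and was higher than its parent MORF4L1, at 1.89 (1.02 to 3.71). HMGN2P5 was not apart from TJP1, at 0.849 (0.371 to 2.19), nor KRT8P39 from NUP107, at 0.991 (0.360 to 3.01). UPF3AP3 lay below ERP44, which had 100 and 7 counts, at 0.0295 (0.00778 to 0.0969), and HMGB1P3 below SP100 at 0.0927 (0.0229 to 0.278). PDIA3P was the 1 that lay above, at 5.40 (1.56 to 29.0) against CHD1L. The part of the surrounding genes' reads in these rows was not tested, and the strand setting is not given in the sources used here.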

How the data were processed

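RNA from anti-Flag and IgG precipitates of ACHN cells was sequenced by the submitters after oligo(dT) selection, per the labels' protocols. The submitters' processing notes name RSEM and STAR with no version, and GRCh37 and hg19 as builds. The sources used here do not give the annotation release or the strandedness of counting. The authors deposited expected counts, TPM and FPKM per gene with gene lengths, in RSEM's layout per the file headers. The deposited FPKM values were not used.

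Expected counts were rounded and scaled by each library's total of rounded counts to CPM. Ratios of Flag CPM to IgG CPM have exact 95% Clopper-Pearson intervals, from the Flag share of both libraries' counts. Intervals and floors cover counting error only. Pairs were compared with exact conditional odds ratios (scipy 1.17.1, Python 3.11.15). Both intervals were tested on counts simulated from the binomial counting model that they assume. Division of reads, copied reads and variation between libraries were not simulated. TMM factors (edgeR 4.0.16) and median-of-ratios factors (DESeq2 1.42.0, R 4.3.3) served as alternative scalings only, with no test, as did the deposited TPM, with pseudocounts of 0.1 and 1.

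The members and gene lists were chosen with earlier results of these data known. The text names the 15 enriched members with the highest lower bounds, the depleted ones, the 10 most abundant, the 10 pairs furthest from the parent in each direction, up to 2 members at each end of each family list, those nearest the minimum (of which 2 clone-named loci are given by their counts alone), and members listed from the literature, with their parents and overlapping genes. Other members and relatives, in the paragraphs on ribosomal protein copies, families, relatives, pairs not apart and surrounding genes, were chosen after their values were seen. RefSeq (GRCh38.p14) supplied biotypes, overlaps and the printed promoters. Pseudogene transcript sequences were not used here.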

Additional observations from a re-analysis of the deposited data

How the results depend on the processing

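With 1 library per group, no library could be left out. No paired analysis was possible because each group holds 1 library. Of 52 enriched and 7 depleted members, TMM and median-of-ratios scaling each left 24 enriched and 24 depleted, 11.7% of the members each, and gave median log2 ratios of 0.048 and 0.037 in place of 0.83. All 24 enriched rows were among the 52. Under TMM 11.98% of the 10796 genes were enriched and 6.13% depleted, and under median-of-ratios 11.8% and 6.25%. Of the 38 called members named by the stated rules, 13 lost their call under each, among them MTATP6P1, RP11-673C5.1, AC141586.5, PDPK2, LRRC37BP1 and WHAMMP3. Of the enriched members named outside those rules, SPDYE8P lost its call under both and NUS1P1 kept it. Totals that leave out mitochondrial genes and the 10 deepest rows gave 43 enriched and 11 depleted. A minimum of 10 counts gave 63 and 14, a minimum of 50 gave 28 enriched and 3 depleted, and a minimum of 100 gave 16 and 2. The deposited TPM, called past the fold alone, gave 90 enriched and 23 depleted with a pseudocount of 0.1, and 80 and 20 with 1. These included all 52 and all 7 of the main calls. A 4-fold threshold gave 19 enriched and 1 depleted, a 1.5-fold threshold 64 and 14, and a 99% interval 43 and 6. Whole counts alone, an alternative chosen after seeing the data, gave 20 and 3. Of the pairs, 21 higher and 17 lower became 11 and 6 at a minimum of 50 counts, where 29 pairs were left, and 5 and 7 with whole counts, where 22 were left. A 99% interval left 18 and 13. Leaving out members listed by RefSeq as coding or long noncoding, and stems before a final P alone, were likewise added after seeing the data. No called member named in the text changed direction under any setting tried. Of 54 members named by the stated rules, GBAP1 and H3F3AP4, neither called, lay above 1 by counts and below 1 by TPM. Their TPM ratios were 0.755 and 0.996. Depth limits the calls, since 116 of the 205 members held fewer than 50 counts.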
